A study of Arabidopsis thaliana with 15 samples.

Results

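The sites described here are 284 stretches of the Arabidopsis thaliana genome where both MYB3R1 and MYB3R4 were found on chromatin of the inflorescence meristem. They are those of the 11478 nuclear peaks of MYB3R1 replicate 1 (2.47%) that overlap, by 1 bp or more, a peak of both other MYB3R1 libraries and a peak of at least 2 of the 3 MYB3R4 libraries. A stretch of chromosome 2 from 3.2 to 3.7 Mb was left out; it holds 34 peaks of MYB3R1 replicate 1, none of which pass the overlaps. The sites were thus chosen by the presence of peaks in the MYB3R1 and MYB3R4 lists, and whatever follows from that presence is given as a description without a test. Presence in the lists of MYB3R4mNES and neighbouring genes were not part of the choice. Summit positions were not used as such, but the overlaps bound how far apart they can be, and the widths of MYB3R1 and MYB3R4 peaks entered through the overlaps.

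The study sequenced DNA from chromatin immunoprecipitation (ChIP-seq) with an antibody against GFP. All plants were of the Col0 background, grown in days of 16 h light and 8 h dark at 21 and 17 °C, and meristems were dissected at a stem length of about 1 cm. The lines carried GFP-MYB3R1 under the MYB3R1 promoter (3 ChIP libraries), or GFP-MYB3R4 (3 libraries) or GFP-MYB3R4mNES (2 libraries) under the MYB3R4 promoter, so each tagged protein came from a transgene of its own promoter, and all were labelled Col0 with no mutant allele named. The labels do not spell out mNES; NES usually stands for a nuclear export signal. No ChIP from untagged plants was analysed here. Whether the replicates are separate plants is not stated, so p-values measure the spread between these libraries, which may be technical. In MYB3R1 replicates 1, 2 and 3 there were 11478, 19655 and 7089 nuclear peaks, in MYB3R4 786, 2717 and 456, and in MYB3R4mNES 227 and 256. Read depth is unknown, so where a list has no peak, depth and absence of binding cannot be told apart. File names follow 2 styles, one for replicates 1 and 2 of MYB3R1 and MYB3R4 and the other for the remaining 4 libraries. The labels say that some libraries were made in-house and others by a company, without saying which, and do not tie the naming to it. Inside the list of MYB3R4mNES replicate 1, the peaks bear the name given to the MYB3R4 replicate 3 list, although the lists share 0 intervals. Results on MYB3R4mNES are therefore given for each replicate.

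MYB3R proteins are plant MYB transcription factors with several MYB repeats in their DNA-binding domain. They are known for binding the mitosis-specific activator (MSA) element in promoters of genes expressed in G2 and M phase. MYB3R4 is known mainly as an activator of such genes, and MYB3R1 both as an activator and, in DREAM-type complexes, as a repressor. Meristems hold the dividing cells in which these genes are used.

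Fold enrichment, the authors' ratio of ChIP signal over input at the summit of a peak, was high at the shared sites within every list. In MYB3R1 replicate 1 it had a median of 7.39 (range 2.43 to 26.1), against 3.04 for all nuclear peaks of the list. Medians at the sites were 7.09 in MYB3R1 replicate 2 and 3.77 in replicate 3, against 2.76 and 2.21 for the whole lists. In MYB3R4 replicates 1, 2 and 3 the medians at sites with a peak were 2.29, 2.80 and 2.78, against 1.74, 2.04 and 1.94. The overlaps required by the rule favour strong peaks, so this is no finding about the sites. Above the 90th percentile of fold enrichment of their list were 240 of 284 sites in MYB3R1 replicate 1, 270 in replicate 2 and 161 in replicate 3. They made up 2.47%, 1.42% and 4.26% of the nuclear peaks of the MYB3R1 lists, but 28.4%, 10.8% and 46.3% of those of MYB3R4 replicates 1, 2 and 3. Without the omitted stretch of chromosome 2, the share of MYB3R4 replicate 3 was 70.3%.

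**Figure D1:**
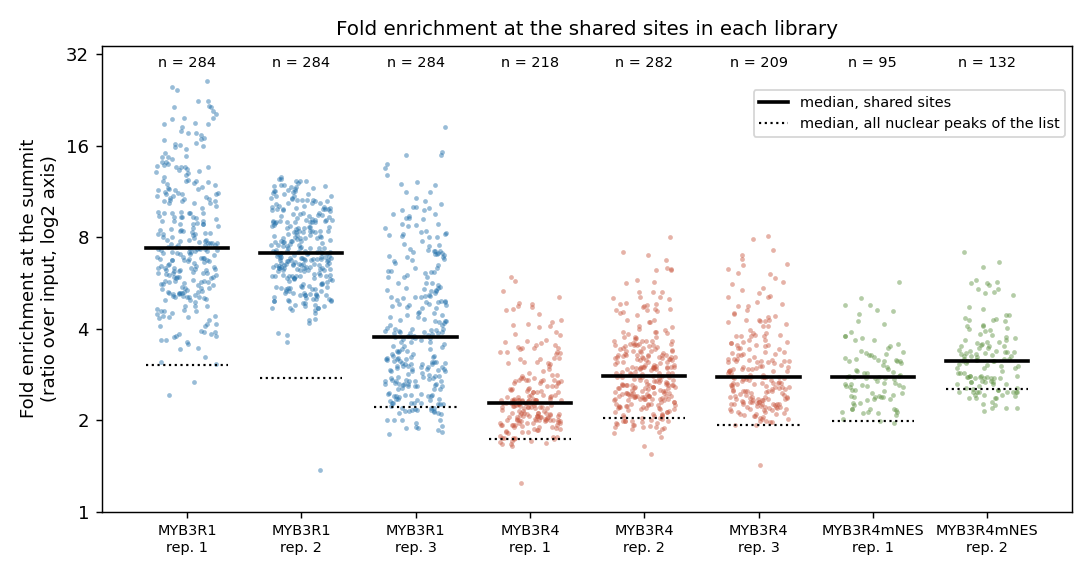
Fold enrichment (ratio over input, log2 axis) at the shared sites with a peak in each of the 8 libraries, 1 point per site. Solid bars mark the median of the sites and dotted bars the median of all nuclear peaks of that list; the MYB3R1 replicate 1 median is 7.39 at the sites and 3.04 in the list.

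Of the 284 sites, 141 had a peak in all 3 MYB3R4 libraries and 143 in exactly 2. Among the latter, 75 lacked a peak in MYB3R4 replicate 3, 66 in replicate 1 and 2 in replicate 2, which has the longest MYB3R4 list. Sites in all 3 MYB3R4 libraries had median MYB3R1 fold enrichments of 10.5, 8.62 and 5.12 in replicates 1, 2 and 3, and sites in exactly 2 had 6.11, 6.33 and 3.05. Without MYB3R4 replicate 2, 143 sites would remain by a rule that asks for both others. Across sites, fold enrichments ranked much alike within a group, with Spearman correlations of 0.876 to 0.931 between MYB3R1 libraries (284 sites) and 0.779 to 0.810 between MYB3R4 libraries (143 to 216 sites). Between a MYB3R1 and a MYB3R4 library they were 0.479 to 0.692 (209 to 282 sites). These are descriptions over sites, which share each library and its input. For the 3 MYB3R4 libraries 2 inputs are listed, and which lists share an input is unknown.

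Of the 12 strongest shared sites, ranked by the median percentile of fold enrichment over the 6 MYB3R1 and MYB3R4 lists, 1 was at a listed G2/M gene. First was the site at AT3G15548 and AT3G15550 (chr3:5266155-5267573, TAIR10), with fold enrichments of 20.7, 12.1 and 12.8 in MYB3R1 and 4.71, 6.99 and 5.70 in MYB3R4 replicates 1, 2 and 3. The site of SAC9 (AT3G59770), a phosphoinositide phosphatase, reached 22.3, 12.4 and 9.54 in MYB3R1 and 5.73, 8.03 and 7.90 in MYB3R4. The site between GCH (AT5G64300), an enzyme of riboflavin synthesis, and AGP1 (AT5G64310), an arabinogalactan protein of the cell surface, had 24.4, 10.7 and 13.9 in MYB3R1 and 5.90, 6.71 and 6.97 in MYB3R4. In each of these sites every MYB3R1 value lay above every MYB3R4 value, though folds of lists with separate inputs are not on one scale. At the pair hemf2 (AT4G03205) and XTH9 (AT4G03210, an enzyme that remodels xyloglucan in cell walls) stood the highest fold of any shared site in MYB3R4 replicate 3, at 8.06.

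Other sites in the leading 12 were next to AT1G64760 and PnsB2 (AT1G64770, a subunit of the chloroplast NDH complex), AT5G16250 and ELF9 (AT5G16260, an RNA-binding regulator of flowering time), PPK1 (AT1G77720), UBC35 (AT1G78870, a ubiquitin-conjugating enzyme), AT1G30690, and between MYB80 (AT5G56110, a regulator of anther tapetum development) and AT5G56120. MRLK (AT3G56100), named meristematic receptor-like kinase, had fold enrichments of 13.9, 10.1 and 10.0 in MYB3R1 and 4.80, 6.25 and 6.52 in MYB3R4. The listed G2/M gene was SYP111 (AT1G08560), the cytokinesis syntaxin KNOLLE, which shares its site with NPQ1 (AT1G08550), the violaxanthin de-epoxidase of photoprotection. All 12 had a peak in each of the 8 libraries.

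At the other end, the site between mSFC1 (AT5G01340), a mitochondrial carrier, and AT5G01350 had fold enrichments of 3.11, 4.66 and 2.15 in MYB3R1, 1.67 and 1.98 in MYB3R4 replicates 1 and 2, and no peak in MYB3R4 replicate 3. Every shared site overlapped well beyond the 1 bp required, but no nuclear peak in any list was narrower than 400 bp. The least overlap was 322 bp, at AT5G16230 and AT5G16240, followed by 365 bp at TBP1 (AT5G13820, a telomere-binding protein) and 400 bp at several sites, among them AT1G72250, whose MYB3R1 folds of 10.7, 9.39 and 6.56 were high. Just outside the rule was the peak at AT1G75090 and JAC1 (AT1G75100), where the second-closest MYB3R4 library missed by 56 bp (folds 3.09, 5.28 and 2.14 in MYB3R1 and 1.89 in MYB3R4 replicate 1). The peak at ERH3 (AT1G80350), the catalytic subunit of the microtubule-severing katanin, overlapped no MYB3R4 peak and was 133 bp from the second-closest MYB3R4 library. At AT5G63120 and AT5G63130 this gap was 228 bp.

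The MYB3R4mNES lists, which had no part in the choice, held many of the shared sites. MYB3R4mNES replicate 1 had a peak at 95 of 284 sites (33.5%) and replicate 2 at 132 (46.5%), against 1.19% and 1.63% of all nuclear peaks of MYB3R1 replicate 1. Both replicates had one at 81 sites (28.5%), against a background of 0.993%, and at least 1 replicate at 146 (51.4%), against 1.83%. With the 227 strongest peaks of each library, 73 sites remained, of which 76.7% were in both and 90.4% in at least 1. The background shares are of the full lists and were not computed for these equal lists. With all 3 MYB3R4 libraries required, 141 sites remained, and the shares were 56.7% and 78.0%. In the full lists, replicate 1 alone added 14 sites and replicate 2 alone 51. Seen from the other side, the shared sites took up 95 of the 227 nuclear peaks of replicate 1 (41.9%) and 132 of the 256 of replicate 2 (51.6%). Peaks found in all MYB3R1 libraries but in 1 MYB3R4 library had a MYB3R4mNES peak in 6 and 15 of 1201 cases in replicates 1 and 2, and those with no MYB3R4 peak in 2 and 7 of 4959 cases. With 2 MYB3R4mNES libraries no test across libraries was made; the difference had the same direction in both. Left out in turn, MYB3R4 replicate 2 moved the share in both MYB3R4mNES libraries to 55.9%, and without MYB3R4mNES replicate 2 the share in at least 1 was that of replicate 1, 33.5%.

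Shared sites are stronger MYB3R1 peaks than the rest, so presence was also read within ranges of MYB3R1 fold enrichment. Among peaks at or above the 99th percentile of MYB3R1 replicate 1, 55 of 74 shared sites (74.3%) had a peak in MYB3R4mNES replicate 1 and 62 of 74 (83.8%) in replicate 2. Of the 41 remaining peaks in that range, all found in the 3 MYB3R1 libraries, 0 had one in either replicate. Their median MYB3R1 replicate 1 fold was 12.3 (10.8 to 19.8), against 14.0 (10.9 to 26.1) at the shared sites. Between the 95th and 99th percentiles, shared sites had MYB3R4mNES peaks in 24.3% and 45.2% of 115 cases and the other peaks in 1.17% and 3.51% of 342 cases.

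**Figure D2:**
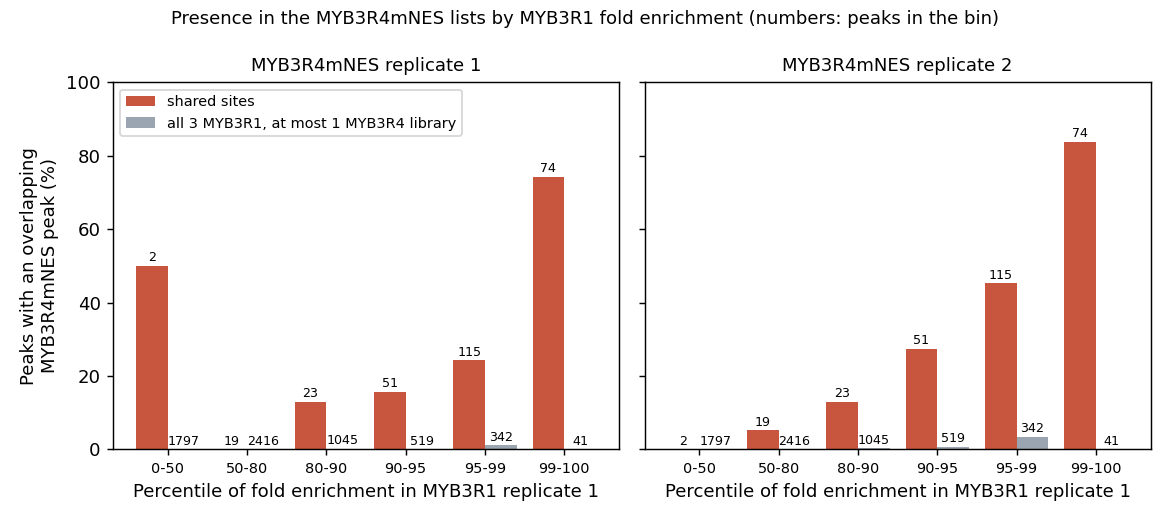
Percent of MYB3R1 replicate 1 peaks with an overlapping peak in MYB3R4mNES replicate 1 (left) and 2 (right), by percentile of fold enrichment, for shared sites and for peaks in all 3 MYB3R1 and at most 1 MYB3R4 library; numbers give the peaks per bar. In the top range 74.3% and 83.8% of shared sites have one and 0 of 41 other peaks do; the first range holds only 2 shared sites.

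Among the shared sites themselves, presence in MYB3R4mNES went with the number of MYB3R4 libraries. Of the 141 sites in all 3 MYB3R4 libraries, 85 had a peak in MYB3R4mNES replicate 1 and 105 in replicate 2, and of the 143 sites in exactly 2, 10 and 27 did. The 81 sites in both MYB3R4mNES libraries had median folds of 3.08, 3.72 and 3.79 in the MYB3R4 replicates, and the 138 sites in neither had 2.05, 2.49 and 2.31. Median MYB3R1 folds were 12.2, 9.53 and 6.67 for the former and 6.11, 6.30 and 2.96 for the latter. Sites without a MYB3R4mNES peak thus had the lower medians in all 6 libraries, and the MYB3R4mNES lists are also the shortest.

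A few sites with strong MYB3R4 peaks lacked both MYB3R4mNES peaks. The strongest of them was at UBC22 (AT5G05080), a ubiquitin-conjugating enzyme, with folds of 11.6, 10.0 and 7.12 in MYB3R1 and 3.12, 3.71 and 2.86 in MYB3R4 replicates 1, 2 and 3. AGP18 (AT4G37450), an arabinogalactan protein, followed with 7.51, 5.96 and 3.60 in MYB3R1 and 2.81, 3.17 and 2.24 in MYB3R4. The sites of MYB73 (AT4G37260), a MYB factor, and of AT1G21090 and IGMT1 (AT1G21100) lacked MYB3R4 replicate 3 as well. For comparison, SAC9 had folds of 5.04 and 5.67 in MYB3R4mNES replicates 1 and 2 and the site at AT1G64760 and PnsB2 had 5.70 and 6.37. The fold enrichments of MYB3R4mNES replicates 1 and 2 ranked most like those of MYB3R4 replicate 3, with Spearman correlations of 0.778 (92 sites) and 0.823 (128 sites). Between MYB3R4mNES replicates 1 and 2 the correlation was lower, at 0.670 (81 sites). The sets of sites differed between the correlations compared. MYB3R4 replicate 3 and both MYB3R4mNES libraries also share a file naming style. Peaks of MYB3R4mNES replicate 1 bear the name given to the MYB3R4 replicate 3 list. The part of these in the likeness was not tested.

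The summits of the 2 proteins lay close together. From the summit of MYB3R1 replicate 1, the nearest summit of an overlapping peak was at a median distance of 19 bp in MYB3R1 replicate 2 and 33.5 bp in replicate 3. In MYB3R4 replicates 1, 2 and 3 the median was 36, 35.5 and 44 bp, and in MYB3R4mNES replicates 1 and 2 it was 33 and 40.5 bp. The distance was 100 bp or less at 90.1% and 82.0% of sites in the MYB3R1, at 80.7%, 78.0% and 77.5% in the MYB3R4 and at 88.4% and 81.8% in the MYB3R4mNES libraries. Group means were 38.5 ± 4.77 bp for MYB3R4 (SD, n = 3) and 26.3 ± 10.3 bp for MYB3R1 (SD, n = 2), and the difference of 12.3 bp had p = 0.20 by an exact permutation test, two-sided, which is the smallest this design allows. Each MYB3R4 library lay above both MYB3R1 libraries, but the lowest MYB3R4 value exceeded the higher MYB3R1 value by less than the spread between replicates. The difference was 2.5 bp without MYB3R1 replicate 1, 6 bp without MYB3R1 replicate 2, 21 bp without MYB3R1 replicate 3 and 8 bp without MYB3R4 replicate 3. It was 2.67 bp with peaks of -log10 q of at least 10, 6 bp with equal numbers of strongest peaks and 7.17 bp with all 3 MYB3R4 libraries required. By naming style, the MYB3R1 and MYB3R4 medians were 19 bp against 36 and 35.5 bp in the first and 33.5 bp against 44 bp in the other. MYB3R4mNES, at 36.8 ± 5.30 bp (SD, n = 2), differed from MYB3R4 by -1.75 bp (exact permutation p = 0.80, smallest possible 0.20), a difference that turned direction under several settings.

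**Figure D3:**
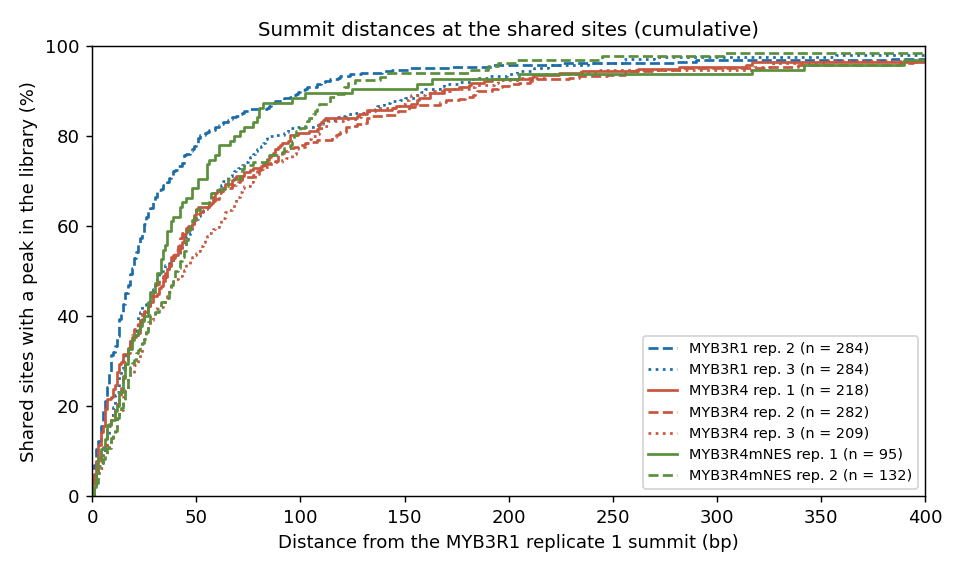
Cumulative percent of shared sites by distance in bp between the MYB3R1 replicate 1 summit and the nearest summit of an overlapping peak in each other library, cut at 400 bp. Medians lie between 19 and 44 bp, with MYB3R1 replicate 2 closest.

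Distances differed with the width of the site. At the 71 narrowest sites (622 to 852 bp wide) the medians in MYB3R4 replicates 1, 2 and 3 were 20, 23 and 35 bp. At the 71 widest (1464 to 4143 bp) they were 57.5, 58 and 72 bp. MYB3R1 replicates 2 and 3 rose likewise, from 13 and 20 bp to 35 and 48 bp. MYB3R4mNES replicates 1 and 2 rose from 29 and 20.5 bp to 63.5 and 50.5 bp. The closest agreement among sites with peaks in all 6 libraries was at AT5G40460, on the list of CDK inhibitors, where MYB3R1 and MYB3R4 summits were a median of 2 bp apart (chr5:16201615-16202444). CBL8 (AT1G64480), a calcium sensor of the calcineurin B-like family, followed with 6 bp, and AT1G04420 and AT5G55180 with 7 bp each. The farthest among sites with peaks in all 6 libraries was PME5 (AT5G47500), a pectin methylesterase, with a median of 711 bp. There the summits of MYB3R4 replicates 1 and 3 lay at -695 and -685 bp from the MYB3R1 replicate 1 summit (negative towards lower coordinates), that of MYB3R4 replicate 2 at 118 bp and that of MYB3R1 replicate 3 at 1254 bp. Libraries of the same protein thus had summits far apart at PME5. At AT5G66310 the MYB3R4 summits were at 262, 690 and 521 bp, so they too differed among themselves. Those of MYB3R4mNES were at 564 and 576 bp, whereas those of MYB3R1 replicates 2 and 3 were at 100 and 1 bp. Folds there were 4.88, 5.96 and 2.41 in MYB3R1, 1.86, 2.00 and 2.41 in MYB3R4 and 2.17 and 2.80 in MYB3R4mNES. Summits of MYB3R4 more than 300 bp away were found at 10, 14 and 11 sites in replicates 1, 2 and 3 (4.59%, 4.96% and 5.26% of sites with a peak). In MYB3R1 replicates 2 and 3 they were found at 9 and 7 sites (3.17% and 2.46%). In MYB3R4mNES replicates 1 and 2 they were found at 6 and 3 sites (6.32% and 2.27%).

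Median peak widths at the shared sites were greater in MYB3R1 than in MYB3R4. Wide peaks meet other lists more easily, so these widths depend on the rule and are given as a description. Median widths were 1049, 1669 and 1171 bp in MYB3R1 replicates 1, 2 and 3 and 529, 713 and 628 bp in MYB3R4, and no MYB3R4 median reached a MYB3R1 median. The means were 1296 ± 328 and 623 ± 92.1 bp (SD, n = 3 each), and MYB3R4 minus MYB3R1 was -673 bp. In MYB3R4mNES replicates 1 and 2 the medians were 551 and 614 bp, with a mean -40.5 bp from that of MYB3R4. Over all nuclear peaks the medians were 615, 728 and 646 bp in MYB3R1 and 576, 559 and 625 bp in MYB3R4, so the whole lists differed far less than the sites. By naming style, MYB3R1 had 1049 and 1669 bp and MYB3R4 529 and 713 bp in the first, and 1171 and 628 bp in the other. From the narrowest to the widest 71 sites, the median MYB3R1 replicate 1 fold was 7.08, 7.82, 7.14 and 7.45, with no steady rise. The part of signal strength in the difference of widths was not tested. Over MYB3R1 replicate 1 peaks, median width went with the overlaps met. It was 523 bp for peaks not in all MYB3R1 libraries and 662 bp for those in all of them and no MYB3R4 library. It was 902 bp with 1 MYB3R4 library and 1049 bp at the shared sites. Median MYB3R1 replicate 1 fold rose over the same classes, at 2.63, 3.42, 4.09 and 7.39. A peak wider than 2000 bp stood at 24 of 284 sites, against 0.758% of all nuclear peaks of the list, from which nothing is read, since the rule favours wide peaks.

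**Figure D4:**
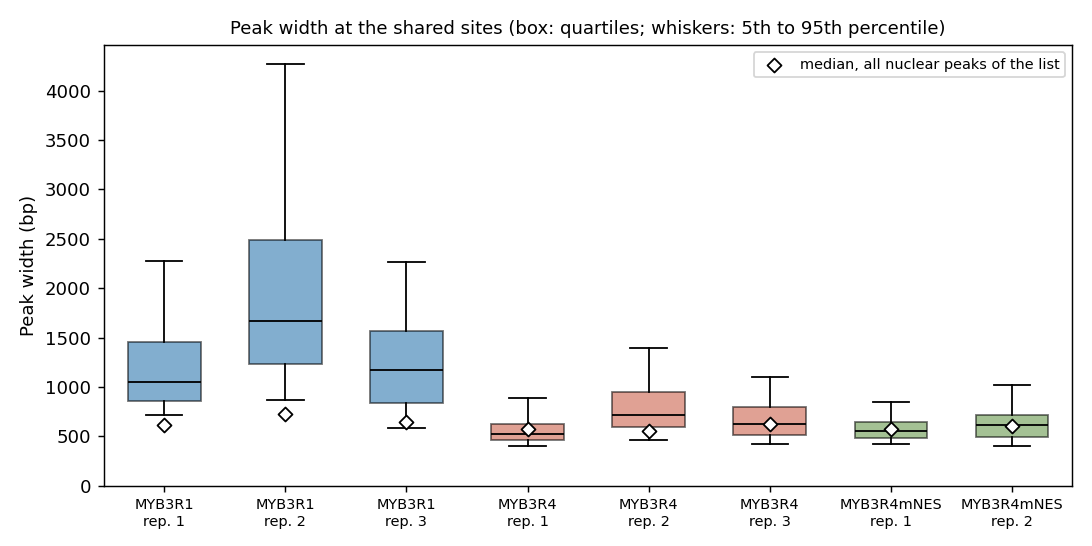
Width in bp of the peaks at shared sites in each library (boxes are quartiles with the median, whiskers the 5th to 95th percentile) and, as diamonds, the median of all nuclear peaks of the list. MYB3R1 medians are 1049 to 1669 bp at the sites, MYB3R4 medians 529 to 713 bp.

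The widest site was a stretch of 4143 bp on chromosome 1 (chr1:29763322-29767464) with its summit inside AT1G79120 and no gene end in reach. Next came BRG3 (AT3G12920, named after the BOI ubiquitin ligase it is related to) with 3735 bp, where MYB3R4 peaks of 761, 627 and 987 bp had summits 50, 17 and 15 bp from that of MYB3R1 replicate 1. The narrowest sites, of 622, 625 and 652 bp, were at UGT84A3 (AT4G15490, a UDP-glycosyltransferase), AT4G37710, and AT2G05786 and AT2G05790. None of the 3 had a MYB3R4mNES peak.

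A gene was assigned to a site when the MYB3R1 replicate 1 summit lay between 1000 bp outside and 200 bp inside either of its ends, because the gene table at hand has no strand. By this rule 237 of 284 sites had at least 1 protein-coding gene (83.5%, against 81.6% of all nuclear peaks of MYB3R1 replicate 1), 91 had 2 and 6 had 3. With the genes shifted by 2000 to 20000 bp, 41.9% to 53.5% of sites had one. The sites named 336 genes, 1.22% of the 27444 nuclear protein-coding genes. Their summits were inside a protein-coding gene at 83 sites (29.2%), against 43.3% of all nuclear peaks of MYB3R1 replicate 1. The sites were spread over the chromosomes, with 74 on chromosome 1, 38 on 2, 50 on 3, 48 on 4 and 74 on 5.

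Of 52 listed genes of G2 and M phase, 19 were there (36.5%), against 1.22% of all genes; no test was made, as lists and sites were chosen with results of these data known. Of the other 33, 25 had a peak in all MYB3R1 libraries and in no MYB3R4 library, 3 in 1 MYB3R4 library, 1 had another MYB3R1 replicate 1 peak and 4 had none. DNA replication genes (26), core histone genes (22), cytokinin genes (35), shoot meristem and flower regulators (28), nuclear transport genes (13) and photosynthesis genes (21) had 0 at a shared site. With lists this short and 1.22% of all genes at shared sites, these counts of 0 are no result about these genes. Many of these did have MYB3R1 peaks: 22 of the 26 replication genes and 19 of the 22 histone genes were in all MYB3R1 libraries and in no MYB3R4 library, a class that held 22.7% of all protein-coding genes. The MYB3R, E2F and DREAM list had 2 of 20 at shared sites, the list of G1 cyclins, CDKA and CDK inhibitors 1 of 28, and widely used reference genes 1 of 13. The last was UBQ10 (AT4G05320), a polyubiquitin gene, with folds of 8.85, 8.70 and 4.51 in MYB3R1, 4.74, 4.61 and 3.31 in MYB3R4, no peak in MYB3R4mNES replicate 1 and 2.78 in replicate 2.

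The 19 sites at G2/M genes had higher median folds than the other shared sites in the MYB3R1 and MYB3R4 libraries, though single sites such as BUBR1, AT3G14190 and KINESIN-12B lay below the other sites' medians in MYB3R4, and 6 of the 19 lacked 1 MYB3R4 library. Their median folds were 13.6, 10.1 and 8.14 in MYB3R1 and 2.65, 3.33 and 3.61 in MYB3R4 replicates 1, 2 and 3, against 7.20, 6.88 and 3.57, and 2.28, 2.78 and 2.78, at the 265 other shared sites. MYB3R4mNES peaks stood at 52.6% and 73.7% of them in replicates 1 and 2, against 32.1% and 44.5% of the others. Of the 19 genes, 11 had peaks in both MYB3R4mNES libraries, 3 in 1 and 5 in none.

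The spindle and its checkpoint were represented by several genes. TPX2 (AT1G03780), a spindle assembly factor, had the highest fold of the MYB3R1 replicate 1 list (26.1, with 12.6 and 15.2 in replicates 2 and 3), but 3.45, 4.26 and 5.07 in MYB3R4. WYR (AT5G55820), the inner centromere protein of the chromosomal passenger complex, had 13.6, 10.5 and 8.57 in MYB3R1 and 2.36, 2.55 and 2.29 in MYB3R4, with MYB3R4 summits at -162, -176 and -244 bp from the MYB3R1 replicate 1 summit. MAD2 (AT3G25980), a spindle checkpoint protein, had 10.5, 8.98 and 5.92 in MYB3R1, 2.76, 3.37 and 3.55 in MYB3R4, and a MYB3R4mNES peak in replicate 2 with 3.13. BUBR1 (AT2G33560), of the same checkpoint, and EB1C (AT5G67270), a microtubule plus-end protein, also had a MYB3R4mNES peak in replicate 2 and none in replicate 1. At BUBR1 that summit lay 1000 bp from the MYB3R1 replicate 1 summit, and the MYB3R4 summits lay at 1023 bp in replicate 1 and 77 bp in replicate 2.

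Genes of cytokinesis included SYP111, with folds of 15.9, 11.4 and 8.84 in MYB3R1, 4.63, 6.22 and 6.77 in MYB3R4 and 4.45 and 5.77 in MYB3R4mNES. PLE (AT5G51600), which cross-links microtubules during cytokinesis, had 10.9, 9.88 and 7.26 in MYB3R1 and 2.29, 3.00 and 3.67 in MYB3R4. CSLD5 (AT1G02730), a cellulose synthase-like protein, had 18.4, 10.6 and 10.0 in MYB3R1 and 2.51, 3.33 and 2.90 in MYB3R4. The kinesin genes HIK (AT1G18370) and KINESIN-12B (AT3G23670), both of the phragmoplast, had no MYB3R4mNES peak. Their peaks were found in 6 and 5 libraries.

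The listed cyclin genes at shared sites were of the B type. CYC1BAT (AT5G06150) had folds of 22.5, 12.4 and 11.98 in MYB3R1 and 3.52, 3.57 and 4.23 in MYB3R4, CYCB2;4 (AT1G76310) had 18.8, 11.9 and 12.1 and 3.10, 3.99 and 4.88, and CYCB2;2 (AT4G35620) had 13.3, 9.87 and 8.14 and 2.54, 3.23 and 3.80. These 3 were in all 8 libraries, whereas CYCB1;4 (AT2G26760) was in 5. Among activators of the anaphase-promoting complex, the neighbours CDC20.2 (AT4G33260) and CDC20.1 (AT4G33270) shared a site, and CDC20.1 had a second with its summit 3402 bp away. The first, at chr4:16043045-16043844, had folds of 10.9, 9.01 and 6.16 in MYB3R1 and 3.45, 4.49 and 5.11 in MYB3R4, and was in both MYB3R4mNES libraries. The second, at chr4:16046448-16047335, had 18.9, 9.08 and 9.79 in MYB3R1 and 2.47, 3.65 and 3.81 in MYB3R4, and was in MYB3R4mNES replicate 2 but not 1. MYB3R4 was higher at the first site in each replicate. MYB3R1 was higher at the second in each, but by little in replicate 2.

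**Figure D5:**
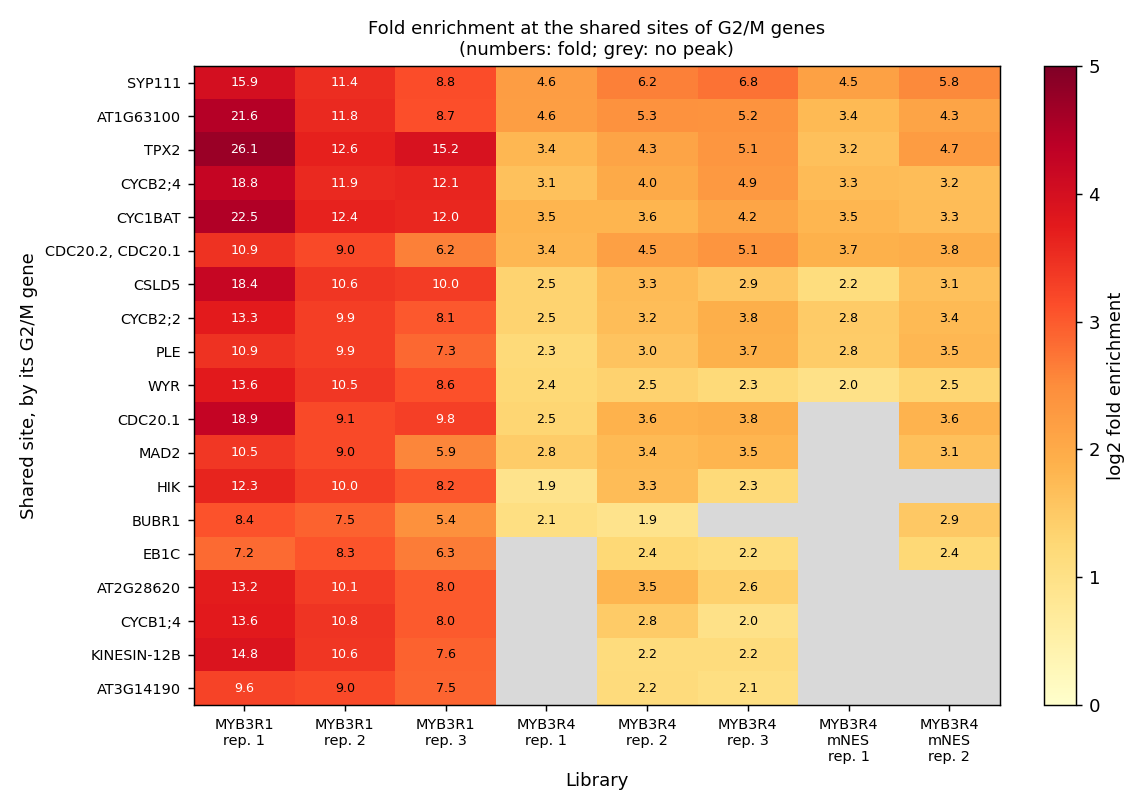
Fold enrichment (number in each cell; colour on a log2 scale) at the 19 shared sites assigned to a listed G2/M gene, in the 8 libraries; grey cells have no peak. The upper 10 sites have a peak in each library; 5 sites are grey in both MYB3R4mNES columns.

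AT1G63100, AT2G28620 and AT3G14190 (PATRONUS 1, which protects the cohesion of sister chromatids) complete the list. AT1G63100 had folds of 21.6, 11.8 and 8.69 in MYB3R1, 4.60, 5.30 and 5.23 in MYB3R4 and 3.37 and 4.29 in MYB3R4mNES. The other two were in 5 libraries each, both without MYB3R4 replicate 1. AT5G40460, of the CDK inhibitor list, had 24.9, 12.2 and 18.4 in MYB3R1, 2.76, 3.29 and 3.12 in MYB3R4 and 2.76 and 3.39 in MYB3R4mNES. By median percentile its place in the MYB3R1 lists was higher than in those of MYB3R4. The same held at TPX2, CSLD5, PLE, WYR, SYP111, AT1G63100, MAD2, CYC1BAT, CYCB2;4, CYCB2;2 and both CDC20.1 sites. Over all shared sites with a peak, median percentiles were 97.3, 98.4 and 93.3 in MYB3R1 and 85.5, 92.9 and 76.2 in MYB3R4. The difference is therefore not particular to these genes.

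The genes of the 2 proteins themselves were the most irregular members. At the MYB3R1 gene (PC-MYB1, AT4G32730, next to La1, AT4G32720) the MYB3R1 peaks were weak, with folds of 2.68, 1.37 and 2.38 and widths of 1178, 893 and 1493 bp. The MYB3R4 replicate 2 peak there had a fold of 6.34 and a width of 8453 bp (chr4:15788365-15796817), the 10th widest of its list, with its summit 1165 bp from that of MYB3R1 replicate 1. MYB3R4 replicate 1 had 5 peaks over the same stretch, with folds between 1.76 and 2.22, MYB3R4 replicate 3 had none, and MYB3R4mNES replicate 1 had 1 with a fold of 2.13. At the MYB3R4 gene (MYB3R-4, AT5G11510) the MYB3R1 folds were 7.33, 7.25 and 5.09, while MYB3R4 replicates 1 and 3 had 1.24 and 1.43 and replicate 2 had no peak. Next to the site, MYB3R1 replicate 1 had a further peak of 3562 bp (fold 3.11) and MYB3R4 replicate 1 one of 4768 bp (fold 1.36). The MYB3R4 summits there lay 531 and 1238 bp from that of MYB3R1 replicate 1. The 2 sites also had the highest and the lowest ratio of MYB3R4 to MYB3R1 percentile of fold enrichment among all 284. Median percentiles were 75.4 against 31.4 at the MYB3R1 gene and 0.509 against 97.2 at the MYB3R4 gene. In these medians, a library without a peak entered below every peak of its list. Where a peak was present, MYB3R4 percentiles at the MYB3R1 gene were 75.4 and 99.9 in replicates 1 and 2. At the MYB3R4 gene they were 0.509 and 12.9 in replicates 1 and 3. Every line carried a transgene with one of these genes, and the part of reads from transgenes was not tested.

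In 47 shared sites no protein-coding gene end lay in reach of the summit, and at 16 of these the summit was inside a gene. MYB3R4mNES replicates 1 and 2 had peaks at 9 and 17 of the 47. The strongest was at chr1:24743589-24744613, nearest to RGL1 (AT1G66350), a DELLA repressor of gibberellin signalling, with folds of 13.0, 8.87 and 7.10 in MYB3R1, 4.10, 5.10 and 3.59 in MYB3R4 and 2.35 and 4.34 in MYB3R4mNES. It was followed by chr3:19806781-19807957, nearest to PIP2A (AT3G53420), a plasma membrane aquaporin, with 13.8, 9.88 and 7.07 in MYB3R1 and 3.81, 4.73 and 3.79 in MYB3R4. Of the 47, 39 also had no annotated non-coding gene in the window, and 6 had a long non-coding RNA, against 82.8% and 10.3% of all nuclear peaks of MYB3R1 replicate 1. Of all those peaks, 81.6% had a protein-coding gene in the window, so the sets compared are not alike.

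Some shared sites lay close to each other, with 13 neighbouring pairs under 5000 bp from summit to summit. The closest summits, at AT5G61997 and ARF2, an auxin response factor gene, were 1364 bp apart. Besides CDC20.1, the genes UNE7 (AT3G03690), BRG3 and AT3G51280 had 2 shared sites. Both sites of BRG3, 2889 bp apart, had peaks in all 8 libraries. In MYB3R1 replicate 2, whose peaks were the widest, 9 sites lay under a peak that they shared with another site.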

How the data were processed

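ChIP libraries from 8 of the 15 samples were analysed. Files of the 7 input samples (3 of MYB3R1, 2 of MYB3R4 and 2 of MYB3R4mNES) were not used here. Each deposited file was one library's peak list; the file names state that input served as control and give an extension size of 400 bp. The submitters' processing notes name FastQC, Trimmomatic, Bowtie2, Picard and TAIR10 without versions; the program that called peaks was not given in the sources used here. The deposited columns, by the authors, hold the fold enrichment (a ratio over input) at each summit, the -log10 p-value and -log10 q-value, a score of 10 times the -log10 q-value rounded down, and the summit position. Peaks reached down to -log10 q-values of 1.31 to 2.09, depending on the library. Depth is unknown and no interval was computed from it; inputs were not assigned to libraries.

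Where several peaks of a library overlapped a site, the one with the nearest summit stood for it. Percentiles are ranks of fold enrichment within a nuclear list. In medians of percentiles over libraries, a library without a peak entered below every peak of its list. Genes came from a RefSeq table of TAIR10.1 (no strand), used for names and neighbours. The 10 gene lists (258 loci, all in the table) were written from memory. The sites and lists were chosen with earlier results of these data known. Named sites followed a fixed rule: the 12 highest and 4 lowest by median percentile, up to 4 per list (12 for G2/M), and extremes of summit distance, width, overlap, MYB3R4mNES absence and ratio of ranks; part of these are named, and the remaining sites at G2/M genes, ARF2, UNE7 and AT3G51280 were named after their values were seen. Group differences in summit distance used exact permutation tests over libraries, two-sided (scipy 1.17.1, Python 3.11.15), at a threshold of 0.05, which these designs cannot reach. The overlap and distance code was tested on simulated lists. Sequence motifs were not analysed here.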

Additional observations from a re-analysis of the deposited data

How the results depend on the processing

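How many sites count as shared depended on the settings. With -log10 q of at least 10 there were 126 sites at 168 genes, with the 227 strongest peaks of each library 73 sites at 108 genes (12 of them G2/M genes), with an overlap of 50% of both peaks 113 sites at 154 genes (12 G2/M genes), and with all 3 MYB3R4 libraries required 141 sites at 184 genes. The share with a peak in both MYB3R4mNES libraries was 34.3% with -log10 q of at least 5, 38.9% with at least 10, 76.7% with the equal lists and 56.7% with all 3 MYB3R4 libraries. It was 35.9% at sites defined from the MYB3R1 and MYB3R4 libraries of the first naming style. Both MYB3R4mNES libraries are of the other style, so this is no comparison within a style. The share in at least 1 was 61.9% with -log10 q of at least 10, 90.4% with the equal lists and 78.0% with all 3 MYB3R4 libraries. Leaving out each library in turn gave 143 to 302 sites, 186 to 340 genes and 13 to 19 G2/M genes, both-library shares of 27.6% to 55.9% and at-least-1 shares of 33.5% to 76.9%; the lowest counts of sites and genes came without MYB3R4 replicate 2. With a library left out, the difference in summit distance, MYB3R4 minus MYB3R1, was 2.5 to 21 bp, in width -794 to -464 bp, and MYB3R4mNES minus MYB3R4 in width -72 to -9 bp. The difference in summit distance, MYB3R4mNES minus MYB3R4, turned to 1.42 and 4.83 bp with -log10 q of at least 5 and 10, 5 bp with equal lists, 3.83 bp with all 3 MYB3R4 libraries and 1 bp with the replicate block, and was -5.5 to 2 bp with a library left out; the cause was not tested. Replicate numbers are shared between groups, but deviations of same-numbered MYB3R1 and MYB3R4 libraries correlated at -0.0360, 0.0903 and 0.128 over 141 sites, so the numbers were not taken to pair the samples; the block changed no other direction and no call. Of 152 values over all alternatives, 118 kept the sign of a difference or, for counts and shares, stayed within the limits set for the main value; the differences among them could still move far, as the ranges above show, and the MYB3R4mNES minus MYB3R4 width reached -94.8 bp with equal lists. Motif shares and gene starts were not run, as no promoter sequence or strand was at hand. Unknown depth limits every statement on absent peaks.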

Other observations

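Gene families seen among the shared sites were counted after their names had been read, so the counts are descriptions. Of 12 genes named as plasma membrane aquaporins (PIP) in the gene table, 3 were at shared sites (PIP1C, PIP2;8 and PIP3), and 3 more (PIP2E, PIP2A and PIP1;4) were the nearest gene to a shared site that had no gene end in its window. Of 30 genes named AGP, for arabinogalactan proteins, 5 were at shared sites (AGP1, AGP4, AGP15, AGP17 and AGP18), against 1.22% of all nuclear protein-coding genes at a shared site. Of 31 genes of xyloglucan-modifying enzymes 1 was at a shared site (XTH9), and of 10 plasma membrane proton pump genes 1 (HA11). Nearest to a shared site without a gene end in its window were 2 more xyloglucan-modifying genes (XTH28 and EXGT-A3). The same held for 1 more proton pump gene (HA1) and 0 AGP genes. The share of all genes nearest to such a site was not computed. Sites nearest to BRI1 (AT4G39400), the brassinosteroid receptor, BAM1 (AT5G65700), a receptor kinase related to CLAVATA1, and ANT (AT4G37750), a regulator of organ growth, were among the 47 sites without a gene end in the window, and had peaks in 6, 5 and 5 libraries.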
